A study of Mus musculus with 11 samples.

Results

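The genes described here are 10 members of the Wnt/beta-catenin feedback circuit that act inside the cell or at its surface: Axin2, Axin1, Nkd1, Nkd2, Notum, Apcdd1, Znrf3, Rnf43, Lgr5 and Lgr4. They were chosen by symbol, with earlier results of these data known. A row in both deposited count tables, which hold 24421 gene symbols, was present for 10 of 10. The name of the set fits most members only: Notum is secreted, and Lgr5 and Lgr4 are receptors that raise Wnt signalling rather than inhibit it. RNA was sequenced from mice with an inducible Cre recombinase expressed from Hic1, a gene of mesenchymal progenitors, and with a tdTomato reporter. WT/flox mice carried in addition 1 Ctnnb1 allele whose exon 3 can be removed, and WT mice did not. Sorted mesenchymal progenitors, also called fibro/adipogenic progenitors, came from 3 WT/flox libraries (2 labelled 14 days and 1, 74A3, labelled 56 days after tamoxifen) and 3 WT libraries (14 days). Whole tibialis anterior muscle came from 3 WT/flox and 2 WT libraries, 56 days after tamoxifen. The sort kept cells that were CD45-, CD31-, Sca1+, tdTomato+ and alpha7-, so that WT progenitors too carried Cre activity and the reporter. Every group had tamoxifen, the muscle was not injured, and the labels give no age. Per the deposited sample tables, each progenitor group held 1 female and 2 males, and all muscle was from males. The Cre acts in cells that express Hic1, so a whole muscle also holds cells with an intact allele.

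Wnt ligands bind Frizzled receptors with LRP co-receptors, which stops a complex built on Axin proteins from marking beta-catenin for destruction. Beta-catenin then joins TCF/LEF factors on DNA, and several of the genes switched on act back on the pathway at different levels, which keeps the response in bounds. Removal of exon 3 takes away the sites through which beta-catenin is marked, so that the protein made from that allele is stable without a ligand. In skeletal muscle, mesenchymal progenitors lie between the fibres and give rise to fibroblasts and adipocytes.

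To show what lies in front of these genes, the 250 bases before the annotated start are given for Axin2, Nkd1, Nkd2 and Lgr4, the first 3 of which rose in WT/flox progenitors while Lgr4 did not pass the test. They come from RefSeq (GRCm38.p6), which matched 5 of the 10 members, Rnf43 being the fifth, and they were picked after the values were seen. Capitals mark CG steps, the sites where mammalian DNA can be methylated. The Axin2 stretch (chr11:108920099-108920348, plus strand) holds 24 CG steps, the Nkd1 stretch (chr8:88527383-88527632, plus strand) 6, the Nkd2 stretch (chr13:73847632-73847881, minus strand) 14 and the Lgr4 stretch (chr2:109917397-109917646, plus strand) 10. The RefSeq start used for Nkd1 lies inside the GENCODE gene, which begins at 88521354.
Axin2: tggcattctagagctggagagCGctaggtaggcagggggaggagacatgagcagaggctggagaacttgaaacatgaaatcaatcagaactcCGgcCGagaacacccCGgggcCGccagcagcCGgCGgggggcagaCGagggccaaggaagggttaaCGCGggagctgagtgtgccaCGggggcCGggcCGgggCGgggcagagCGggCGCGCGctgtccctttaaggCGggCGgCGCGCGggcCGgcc
Nkd1: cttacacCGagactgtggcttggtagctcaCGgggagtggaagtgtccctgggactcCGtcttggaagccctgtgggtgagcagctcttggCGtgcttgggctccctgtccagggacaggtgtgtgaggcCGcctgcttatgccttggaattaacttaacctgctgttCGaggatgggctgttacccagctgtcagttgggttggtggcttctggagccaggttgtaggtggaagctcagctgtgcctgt
Nkd2: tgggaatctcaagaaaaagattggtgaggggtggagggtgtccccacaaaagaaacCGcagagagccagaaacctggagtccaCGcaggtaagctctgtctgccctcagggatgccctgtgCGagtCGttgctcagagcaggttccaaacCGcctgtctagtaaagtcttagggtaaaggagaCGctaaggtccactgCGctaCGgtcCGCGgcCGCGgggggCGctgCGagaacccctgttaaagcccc
Lgr4: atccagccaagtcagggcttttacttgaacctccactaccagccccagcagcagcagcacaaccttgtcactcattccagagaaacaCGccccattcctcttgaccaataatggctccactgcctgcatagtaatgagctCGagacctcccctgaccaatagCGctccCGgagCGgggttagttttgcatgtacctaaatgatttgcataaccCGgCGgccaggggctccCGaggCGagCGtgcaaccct
The median of 32851 RefSeq mouse promoters was 6 CG steps and 52.4% G or C, so the Axin2 stretch, at 69.2%, is rich in both, while Nkd1 lies at the median in CG steps. The letters to which TCF/LEF factors bind, CTTTG followed by 2 bases that are each A or T, were searched on both strands of 300 bases around each start (250 before and 50 after). Such a match occurred in 0 of the 6 promoters of these 5 members, while 16.9% of all promoters held at least 1 match. The core CTTTG alone, searched on both strands after that result was known, occurred in 0 of the 6 stretches before the start, against 48.6% of all. The absence says only that these letters are not in these windows.

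Libraries held 13119843 to 16805238 counts for progenitors and 16892158 to 19449227 for muscle. The labels give every library its own identifier without saying that each is a separate animal, so p-values measure the spread between libraries. Summed over 10 fixed markers of mesenchymal progenitors, the sorts reached 66253 to 74631 CPM (counts per 1000000 counts of the library, with edgeR's TMM scaling within each material) in WT/flox and 47540 to 52317 CPM in WT. Between the sorts, edgeR called 1 of these 10 markers, Col1a1, as higher in WT/flox. The higher WT/flox sum thus cannot be read as purity alone. Markers of muscle fibres summed to at most 23.7 CPM in WT/flox and 115 CPM in WT sorts. Of 5 muscle stem cell markers, Myf5, Cdh15 and Calcr were at 0 in both sorts, while Pax7 and Itga7 were detected. The 5 summed to 1.36 to 4.05 CPM in WT/flox and 1.59 to 3.53 CPM in WT sorts. The deposited sample table calls the muscle libraries FAPs, against their labels. Fibre markers summed to 106472 to 156492 CPM in WT/flox muscle and 155020 to 179524 CPM in WT muscle, and the labels were followed. Ctnnb1 reached 402 ± 23.1 CPM in WT/flox and 482 ± 38.3 CPM in WT progenitors (SD, n = 3 each; edgeR adjusted p = 0.673), and 297 ± 11.7 CPM in 3 WT/flox against 297 ± 37.6 CPM in 2 WT muscles. Hic1, the Cre driver, reached 84.0 ± 13.3 CPM in WT/flox and 100.4 ± 11.4 CPM in WT progenitors (adjusted p = 0.711), and 6.18 ± 0.661 CPM in WT/flox and 5.19 ± 0.275 CPM in WT muscle (adjusted p = 0.78). Counts summed over all exons of Ctnnb1 cannot show whether exon 3 was removed.

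In the progenitors, 5 members rose in WT/flox cells: Axin2, Nkd1, Nkd2, Notum and Apcdd1. The others tested, Axin1, Znrf3, Lgr5 and Lgr4, did not pass the threshold, which was a Benjamini-Hochberg adjusted p of 0.05 in edgeR's quasi-likelihood test over 12392 genes. Rnf43 did not pass the filter on low counts. Thus 5 of 9 tested members were called higher and 0 lower, while 3.66% of all tested genes were called, 2.34% higher and 1.32% lower. Notum, with 1, 1 and 11 counts in WT cells, passed the filter through its WT/flox libraries alone. It could only be called higher, so its place in these counts and ranks follows in part from the filter. Ranked by p over all tested genes, Axin2 came 1st, Nkd1 2nd, Nkd2 3rd, Notum 5th and Apcdd1 7th. The median log2 fold change of the 9 tested members was 2.85, and that of all tested genes 0.00. In 7 of 9 members the WT/flox and WT libraries did not overlap, against 16.9% of all tested genes.

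**Figure D1:**
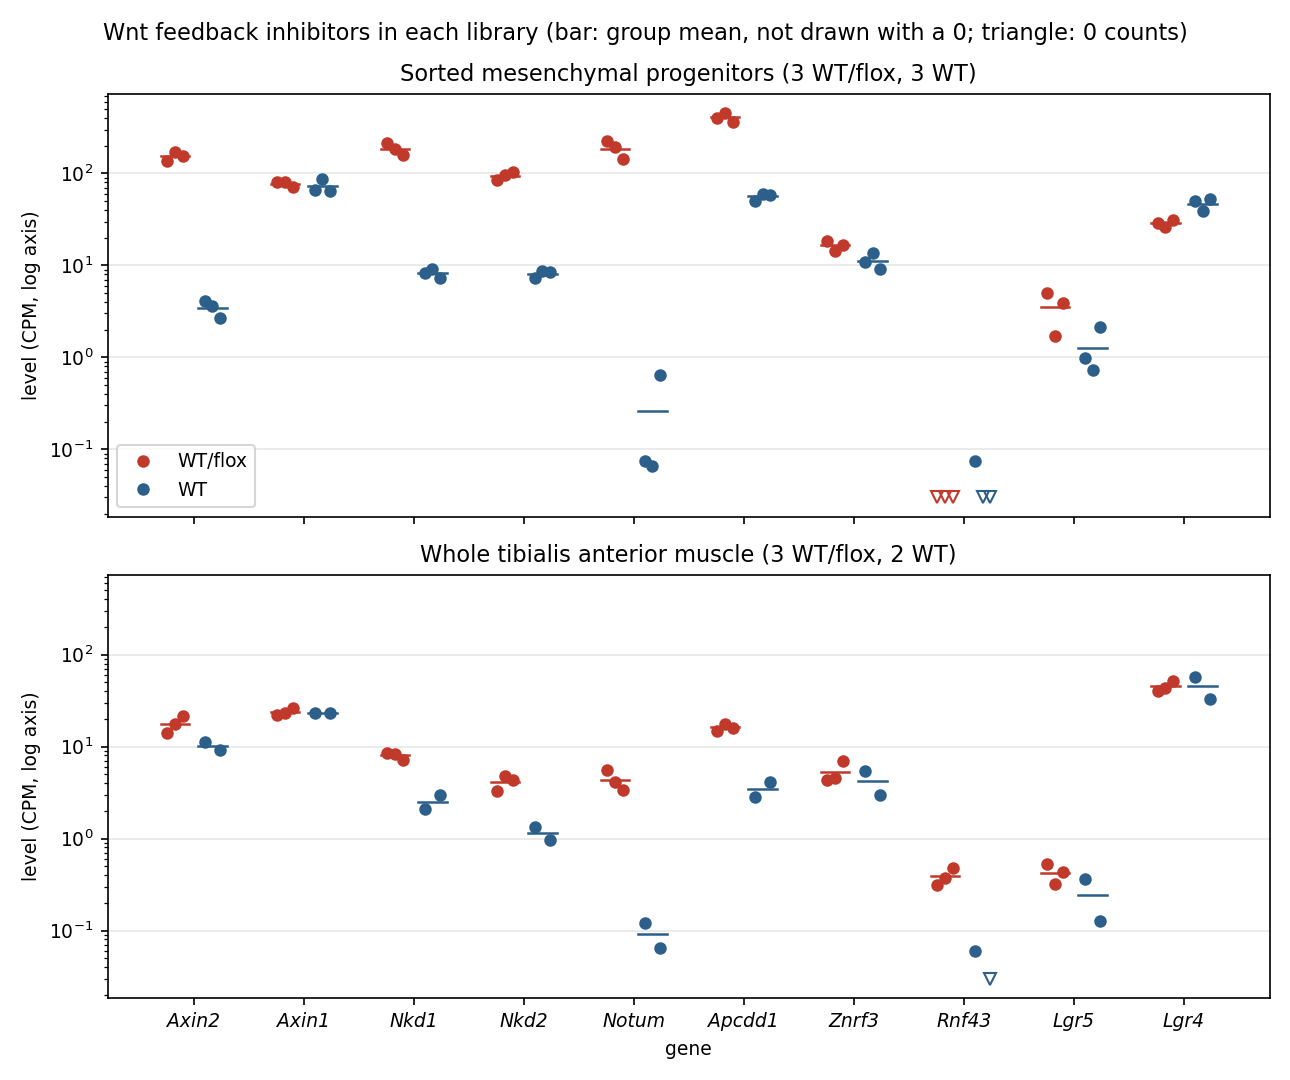
Level of each gene in every library, in CPM on a log axis, for sorted progenitors (top) and whole muscle (bottom), with WT/flox left of WT, a bar at each group mean (left out where a library is at 0) and triangles for libraries with 0 counts. Axin2, Nkd1, Nkd2, Notum and Apcdd1 separate the genotypes widely in the progenitors, with Notum at 142 to 223 CPM in WT/flox and at most 0.647 CPM in WT cells, while Axin1 overlaps.

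Axin2 and Axin1 are the scaffolds of the complex that holds beta-catenin for phosphorylation, and Axin2 is the one known as a general target of the pathway. Axin2 (ENSMUSG00000000142, GRCm38 chromosome 11, 108920349 to 108950783, plus strand) had 136, 169.7 and 156 CPM in WT/flox progenitors, against 4.07, 3.64 and 2.71 CPM in WT progenitors. Every WT/flox library lay far above every WT library, with a log2 fold change of 5.47 (SE 0.22, 95% interval 4.99 to 5.96, adjusted p = 4.4e-06), which is 44.4-fold. Axin1 (chromosome 17, 26138688 to 26195811, plus strand) had 80.1, 81.4 and 70.8 CPM in WT/flox progenitors, against 66.2, 85.9 and 64.5 CPM in WT progenitors. These libraries overlapped, and the log2 difference of 0.10 had a 95% interval of -0.27 to 0.47 (adjusted p = 0.964). An antisense gene, Gm11670, shares 209 exon bases with Axin2 and has no row in the tables. Since the use of strand in counting is not given in the sources used here, its reads cannot be told apart from those of Axin2.

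Nkd1 and Nkd2 (naked cuticle homologues) bind Dishevelled, the protein that passes the signal from Frizzled to the Axin complex, and dampen it there. Nkd1 (chromosome 8, 88521354 to 88594884, plus strand) had 216, 186 and 157 CPM in WT/flox progenitors, against 8.28, 9.20 and 7.35 CPM in WT progenitors. Nkd2 (chromosome 13, 73818534 to 73847631, minus strand) had 83.8, 95.1 and 103 CPM in WT/flox progenitors, against 7.23, 8.67 and 8.53 CPM in WT progenitors. Both genes were on at a low level in every WT library, and no WT library came near a WT/flox one. The log2 fold change was 4.49 (SE 0.20, adjusted p = 6.3e-06) for Nkd1 and 3.53 (SE 0.17, adjusted p = 1.1e-05) for Nkd2.

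Notum is a secreted esterase that removes the lipid by which Wnt proteins bind Frizzled, and so inactivates the ligand outside the cell. Notum (chromosome 11, 120653788 to 120661175, minus strand) had 223, 193 and 142 CPM in WT/flox progenitors, or 1873 to 3044 counts, against 0.0753, 0.0662 and 0.647 CPM in WT progenitors, or 1, 1 and 11 counts. It was close to undetected in WT cells, and the WT library with 11 counts, 73C3, held most of the WT counts. The log2 fold change was 9.32 (SE 0.49, adjusted p = 2.3e-05), the 2nd largest of all tested genes, and 11.19 without 73C3, so its size rests on few WT counts. The antisense genes Notumos and Myadml2os share 708 and 210 exon bases with Notum and have no row in the tables, and without knowledge of strand their reads cannot be told apart from those of Notum.

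Apcdd1 is a membrane glycoprotein that binds Wnt ligands and LRP co-receptors and blocks signalling at the surface. Apcdd1 (chromosome 18, 62922231 to 62961179, plus strand) had 402, 457 and 365 CPM in WT/flox progenitors, against 50.1, 60.3 and 58.9 CPM in WT progenitors. Of the genes that rose, it had the highest level per kilobase in WT cells (4.38 CPM per kb), and its libraries did not overlap either. The log2 fold change was 2.85 (SE 0.18, adjusted p = 5.4e-05), or 7.23-fold, the smallest of the 5.

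Znrf3 and Rnf43 are transmembrane ubiquitin ligases that take Frizzled receptors off the cell surface. Znrf3 (chromosome 11, 5276324 to 5444847, minus strand) had 18.4, 14.2 and 16.8 CPM in WT/flox progenitors, against 10.8, 13.8 and 9.24 CPM in WT progenitors. The lowest WT/flox library lay just above the highest WT library, and the log2 difference of 0.55 (SE 0.20, 95% interval 0.10 to 1.0) did not pass the threshold (adjusted p = 0.244). Rnf43 (chromosome 11, 87662722 to 87735539, plus strand) had 0 counts in all 3 WT/flox progenitor libraries and 1 count over the 3 WT progenitor libraries. At this depth 0 counts over the group allow up to 0.0728 CPM in WT/flox progenitors, counting error alone considered, so a difference was not detectable.

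Lgr5 and Lgr4 bind R-spondins, and the bound pair draws Znrf3 and Rnf43 away from Frizzled. Lgr5 (chromosome 10, 115450311 to 115587780, minus strand) had 4.99, 1.69 and 3.87 CPM in WT/flox progenitors, against 0.979, 0.728 and 2.12 CPM in WT progenitors. The libraries overlapped, and the log2 difference of 1.44 (SE 0.51, 95% interval 0.31 to 2.57) did not pass the threshold (adjusted p = 0.219). Lgr4 (chromosome 2, 109917647 to 110014257, plus strand) had 28.8, 26.4 and 31.4 CPM in WT/flox progenitors, against 49.6, 38.8 and 52.5 CPM in WT progenitors. It was the member whose difference pointed down, with all WT/flox libraries below all WT libraries, but the log2 difference of -0.70 (SE 0.17, 95% interval -1.08 to -0.33) missed the threshold (adjusted p = 0.0532). Over 14 alternative analyses its adjusted p ran between 0.0124 and 0.195, and 4 of them called it lower.

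The 74A3 library is labelled day 56 and the other 5 progenitor libraries day 14, and whether that label is right could not be checked from the data. Without it the log2 fold changes were 5.46 for Axin2, 4.60 for Nkd1, 3.45 for Nkd2, 9.48 for Notum and 2.93 for Apcdd1, and edgeR called each of them (adjusted p at most 4.0e-04). In the sorts, Kdr of the endothelial markers was higher in WT/flox, at 88.9 to 169 CPM against 2.65 to 9.49 CPM in WT, and Cspg4 of the mural markers lower, at 26.7 to 37.0 CPM against 95.6 to 219 CPM in WT. Without Kdr the endothelial markers summed to 14.0 to 18.6 CPM in WT/flox and 6.09 to 29.8 CPM in WT progenitors. Without Cspg4 the mural markers summed to 34.0 to 64.6 CPM in WT/flox and 25.0 to 49.5 CPM in WT progenitors. The part of such cells in the results was not tested.

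Levels between genes were set side by side per kilobase of exon. The length used was that of all annotated exons of a gene merged, such as 12884 bases for Apcdd1 and 2408 for Notum. Which transcripts were expressed was not examined, so the order between genes depends on these lengths. Among WT/flox progenitors the order was Notum (77.3 ± 17.1 CPM per kb), Nkd1 (40.9 ± 6.45), Apcdd1 (31.7 ± 3.59), Axin2 (27.9 ± 3.12), Axin1 (20.2 ± 1.5) and Nkd2 (19.5 ± 2.03), each as mean ± SD of 3 libraries. Below them came Lgr4 (4.91 ± 0.426 CPM per kb), Znrf3 (2.09 ± 0.268) and Lgr5 (0.343 ± 0.163), with Rnf43 at 0. Neighbours whose libraries overlapped were Nkd1 with Apcdd1, Apcdd1 with Axin2, and Axin1 with Nkd2. Among WT progenitors Axin1 led with 18.9 ± 3.11 CPM per kb, followed by Lgr4 (7.98 ± 1.22), Apcdd1 (4.38 ± 0.43), Nkd1 (1.82 ± 0.202), Nkd2 (1.69 ± 0.165) and Znrf3 (1.43 ± 0.292). Axin2 (0.63 ± 0.126 CPM per kb), Lgr5 (0.124 ± 0.0722), Notum (0.109 ± 0.138) and Rnf43 (0.00383 ± 0.00663) closed the WT order. Here Nkd1 overlapped with Nkd2, Nkd2 with Znrf3, and Lgr5 with Notum. By this measure Notum stood first of 10 in WT/flox progenitors and ninth of 10 in WT progenitors. Without division by length, Apcdd1 (408 CPM) stood above Notum (186 CPM) in WT/flox progenitors. In muscle Lgr4 and Axin1 led in both genotypes, with 7.68 ± 0.98 and 6.23 ± 0.61 CPM per kb in WT/flox and 7.7 ± 2.95 and 6.04 ± 0.0506 CPM per kb in WT, followed by Axin2 with 3.22 ± 0.656 in WT/flox and 1.85 ± 0.253 in WT. Notum came next in WT/flox muscle, with 1.8 ± 0.46 CPM per kb, and eighth in WT muscle, with 0.0382 ± 0.0163. Libraries overlapped for Notum with Nkd1, Nkd2 with Znrf3 and Rnf43 with Lgr5 in WT/flox muscle. In WT muscle they overlapped for Lgr4 with Axin1, Nkd1 with Znrf3, Apcdd1 with Nkd2 and Notum with Lgr5. The 10 genes summed to 1046 to 1225 CPM in WT/flox and 197 to 221 CPM in WT progenitors, and to 114 to 138 CPM in WT/flox and 76.8 to 104 CPM in WT muscle.

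The balance within pairs of related genes was taken as the log2 ratio of their CPM per kb in each library. Over any 43 bases, the read length, the members of each pair share no identical stretch in their annotated transcripts. Axin2 exceeded Axin1 in every WT/flox progenitor library, with log2 ratios of 0.24, 0.54 and 0.62, and lay far below it in WT progenitors, with -4.55, -5.09 and -5.10. The difference of 5.38 had an exact two-sided permutation p of 0.1, the smallest that 3 against 3 libraries can give. The Nkd1 to Nkd2 log2 ratio was 1.06 ± 0.38 in WT/flox and 0.11 ± 0.21 in WT progenitors (SD, n = 3 each, exact permutation p = 0.1), so that Nkd1 exceeded Nkd2 by more in WT/flox libraries without overlap. The Lgr5 to Lgr4 log2 ratio was -3.97 ± 0.73 in WT/flox and -6.14 ± 0.62 in WT progenitors (exact permutation p = 0.1), and Lgr4 was the more abundant in each library. In muscle the Axin2 to Axin1 log2 ratio was -0.97 ± 0.17 in 3 WT/flox and -1.71 ± 0.21 in 2 WT libraries, again without overlap, with an exact permutation p of 0.2, the smallest that 3 against 2 can give. The muscle Nkd1 to Nkd2 log2 ratio was 1.04 ± 0.35 in WT/flox and 1.23 ± 0.67 in WT, with overlap (exact permutation p = 0.8). Whether the shift of this ratio differed between the materials was not tested.

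**Figure D2:**
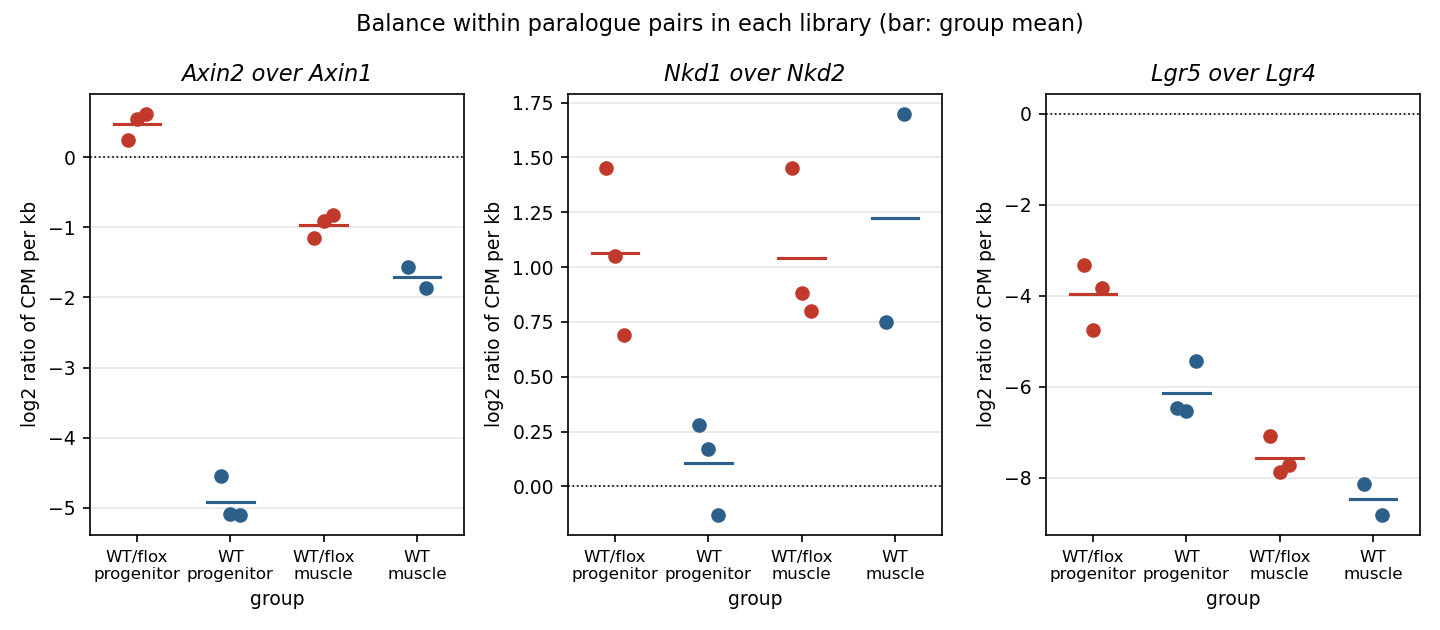
Log2 ratio of CPM per kb within 3 pairs of related genes, with 1 point per library and a bar at the group mean, for WT/flox and WT progenitors and then WT/flox and WT muscle. The Axin2 to Axin1 ratio averages 0.47 in WT/flox and -4.91 in WT progenitors, and -0.97 in WT/flox and -1.71 in WT muscle.

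In whole muscle, 4 members rose in WT/flox mice: Notum, Apcdd1, Nkd2 and Nkd1. Of the 8 members tested, 4 were called higher and 0 lower, while 0.727% of 12654 tested genes were called, 0.514% higher and 0.213% lower. Rnf43 and Lgr5 did not pass the filter on low counts. Notum, with 2 and 1 counts in WT muscle, passed it through WT/flox muscle alone and could only be called higher. The median log2 fold change of the tested members was 1.23, against 0.00 for all tested genes, and in 5 of 8 the libraries did not overlap, against 25.3% of all tested genes. In such bulk samples, fewer cells of a type and less RNA per cell cannot be told apart.

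Notum had 5.53, 4.11 and 3.35 CPM in WT/flox muscle, or 252 counts in all, against 0.12 and 0.0641 CPM in WT muscle, or 3 counts in all. The libraries were far apart, with a ratio of 50.4 by total counts and a 95% counting interval of 17.0 to 246 (edgeR log2 fold change 5.44, SE 0.49, adjusted p = 0.00598). Apcdd1 had 14.9, 17.7 and 15.9 CPM in WT/flox muscle, against 2.81 and 4.10 CPM in WT muscle. Its log2 fold change was 2.23 (SE 0.22, adjusted p = 0.00659), and WT/flox libraries lay well above both WT libraries.

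Nkd2 had 3.32, 4.8 and 4.35 CPM in WT/flox muscle, against 1.32 and 0.961 CPM in WT muscle, a log2 fold change of 1.86 (SE 0.29, adjusted p = 0.0404). Nkd1 had 8.59, 8.32 and 7.18 CPM in WT/flox muscle, against 2.09 and 2.95 CPM in WT muscle, a log2 fold change of 1.67 (SE 0.23, adjusted p = 0.0233). Neither Nkd gene had overlapping libraries. Axin2 had 14.1, 17.7 and 21.3 CPM in WT/flox muscle, against 11.2 and 9.23 CPM in WT muscle. Its libraries did not overlap, but the log2 difference of 0.80 (SE 0.21, 95% interval 0.31 to 1.29) did not pass the threshold (adjusted p = 0.216).

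Axin1 had 22.0, 23.1 and 26.5 CPM in WT/flox muscle, against 23.0 and 23.3 CPM in WT muscle, with a 95% interval of the log2 difference of -0.29 to 0.38 (adjusted p = 0.963). Znrf3 had 4.37, 4.59 and 6.94 CPM in WT/flox muscle, against 5.45 and 3.01 CPM in WT muscle (log2 difference 0.32, 95% interval -0.42 to 1.07, adjusted p = 0.841). Lgr4 had 40.7, 43.1 and 51.7 CPM in WT/flox muscle, against 57.6 and 33.1 CPM in WT muscle (log2 difference -0.01, 95% interval -0.56 to 0.55, adjusted p = 0.997). In all 3 of these genes the libraries overlapped. Rnf43 had 6, 7 and 10 counts in WT/flox muscle, against 1 and 0 in WT muscle, a ratio by total counts of 13.8 with a 95% counting interval of 2.24 to 568. In the 3 alternatives that kept Rnf43 its adjusted p was 0.147 to 0.411. Lgr5 had 25 counts in all in WT/flox muscle, against 8 in WT muscle, a ratio of 1.87 (0.819 to 4.81). Counting intervals do not include the spread between libraries.

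The muscle calls rest on few libraries. Without the WT/flox library 71B5, edgeR called 0 of 12489 tested genes, the smallest adjusted p being 0.0532. An unadjusted p under 0.05 was found for 1023 of these 12489 genes and for 5 of 8 tested members. The log2 fold changes stayed at 5.60 for Notum, 2.24 for Apcdd1, 1.75 for Nkd1 and 1.82 for Nkd2. Without 71B4, 2 members were called, and without 71B3 or without the WT library 73A7, 3. Nkd1 lost the call without 71B3 (adjusted p = 0.052), 71B4 (0.114) or 71B5 (0.119), and was called in 8 of 11 alternatives. Nkd2 lost it without 73A7 (adjusted p = 0.0567), 71B4 (0.175) or 71B5 (0.229) and with limma's voom (0.0698), and was called in 7 of 11. Notum and Apcdd1 were each called in 10 of 11, losing the call without 71B5. All WT/flox muscle libraries share the identifier prefix 71B and both WT ones 73A, so what the prefix stands for and genotype cannot be told apart. The 10 progenitor markers summed to 1516 to 1683 CPM in WT/flox muscle and 755 to 1199 CPM in WT muscle. Each of the 10 had a positive log2 difference (median 0.29), and edgeR called 0 of them, the smallest adjusted p being that of Dpp4 (0.0846). The log2 differences were 1.28 for Dpp4, 0.89 for Col3a1, 0.79 for Dcn, 0.71 for Col1a1 and between 0.09 and 0.31 for the other 6, Pdgfra and Hic1 among them. Summed markers of other cell types lay lower in WT/flox muscle without overlap: endothelial markers at 269.7 to 290.3 CPM against 354 to 388 CPM in WT, muscle stem cell markers at 99.1 to 121 CPM against 140.2 to 177 CPM in WT, and glial markers at 91.0 to 103 CPM against 105 to 124 CPM in WT. Fibre, mural and immune sums overlapped, and edgeR called 0 of the markers of these 6 lists. Libraries did not overlap for 25.3% of all genes tested in muscle, so lack of overlap in these sums says little. The part of cell composition in the members' results was not tested.

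**Figure D3:**
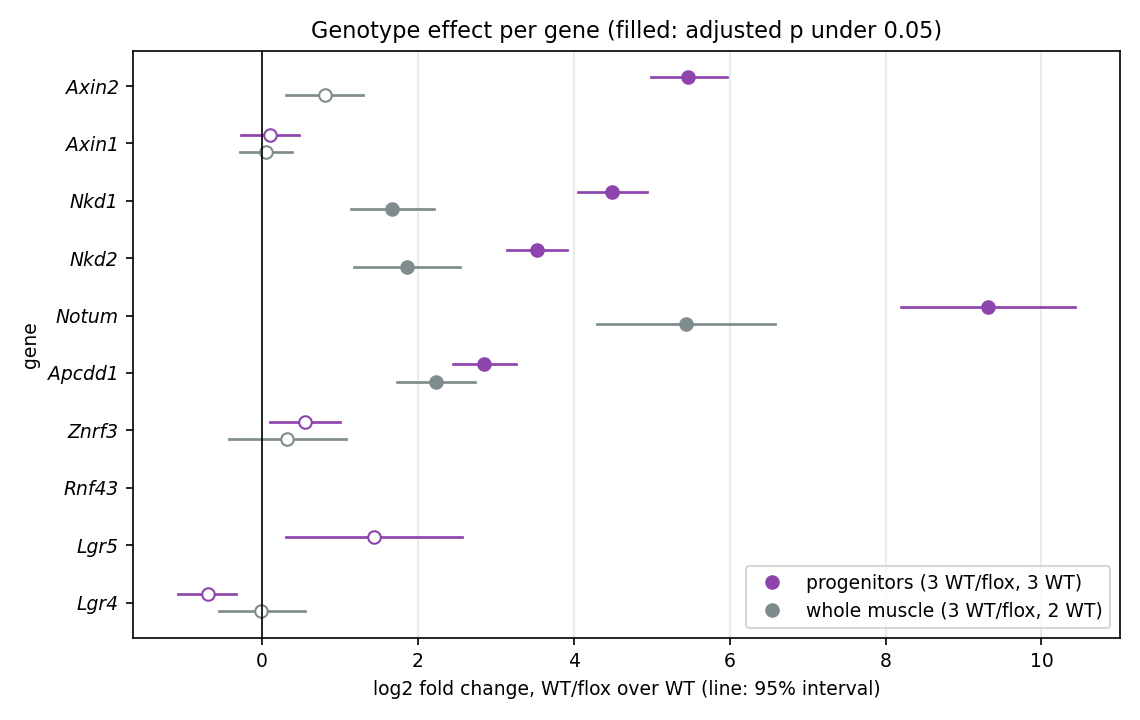
Log2 fold change of WT/flox over WT for each gene in progenitors and in whole muscle, with 95% intervals, filled where the adjusted p is under 0.05 (edgeR). The interval of Axin2 spans 4.99 to 5.96 in progenitors and 0.31 to 1.29 in muscle, while those of Apcdd1 lie close together at 2.45 to 3.26 and 1.73 to 2.73.

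Whether the genotype effect differed between the materials was tested as an interaction in a joint edgeR fit of all 11 libraries. The effect was larger in progenitors for 3 of 9 tested members, Axin2, Nkd1 and Nkd2, and smaller for 0, while 0.769% of 13781 tested genes were called, 0.522% as larger and 0.247% as smaller in progenitors. The log2 difference between the effects was 4.63 for Axin2 (SE 0.29, adjusted p = 3.3e-06), the smallest p of all genes. It was 2.77 for Nkd1 (SE 0.28, adjusted p = 4.4e-04) and 1.61 for Nkd2 (SE 0.33, adjusted p = 0.0369). The Nkd2 call held in 5 of 16 alternatives, with adjusted p between 0.00141 and 0.259. It was lost without any 1 library other than the WT progenitor library 73C3, with differences between 1.35 and 1.85. Apcdd1 had a difference of 0.57 (95% interval -0.02 to 1.16, adjusted p = 0.607) and Notum one of 3.80 (SE 1.63, adjusted p = 0.507), the Notum value resting on few WT counts. The other tested members, Axin1 (0.01), Znrf3 (0.18), Lgr5 (0.59) and Lgr4 (-0.75, adjusted p = 0.482), did not pass the threshold. DESeq2 called the Notum difference (adjusted p = 0.0161), and the other 15 alternatives did not. The RNA kit follows the material and cannot be told apart from it. Day after tamoxifen follows it too, except in 74A3, and the part of day was not tested.

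The differences were also taken in CPM. WT/flox exceeded WT by 150.3 CPM (SE 9.92) in progenitors and by 7.52 CPM (SE 2.30) in muscle for Axin2, which makes the muscle difference 5.0% (SE 1.57) of the progenitor difference. That share was 3.09% (SE 0.451) for Nkd1, 3.52% (SE 0.598) for Nkd2, 2.28% (SE 0.451) for Notum and 3.62% (SE 0.405) for Apcdd1. The materials were scaled separately for these values. Over these 5 genes the share ran between 2.28% and 5.0%, while the log2 difference in muscle ran between 0.80 and 5.44.

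In WT mice the levels of these genes differed between progenitors, all labelled day 14, and muscle, all labelled day 56. Day and RNA kit follow the material here and cannot be told apart from it, and the fold changes depend on the joint scaling. All muscle was from males, while 1 WT progenitor library was from a female. In the joint fit, WT progenitors exceeded WT muscle for 6 of 9 tested members and fell below it for Axin2, where 76.1% of all tested genes were called, 38.6% higher and 37.5% lower. A share that high means that being called says little about these genes, and the sizes are given as a description. With joint scaling, Axin2 reached 0.528 ± 0.0839 CPM per kb in 3 WT progenitor libraries and 2.32 ± 0.337 CPM per kb in 2 WT muscle libraries, a log2 fold change of -2.14 (SE 0.22, adjusted p = 7.5e-07). Apcdd1 differed most the other way, with 3.69 ± 0.465 CPM per kb in WT progenitors and 0.335 ± 0.0851 in WT muscle (log2 fold change 3.46, SE 0.23, adjusted p = 8.3e-09).

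The log2 fold change of WT progenitors over WT muscle was 2.26 for Nkd2 (adjusted p = 2.0e-06), 1.15 for Nkd1 (adjusted p = 3.3e-04) and 1.07 for Axin1 (adjusted p = 6.4e-05). It was 1.81 for Lgr5 (adjusted p = 0.0357) and 0.83 for Znrf3 (adjusted p = 0.0181). Both of these depended on single libraries: without the WT muscle library 73A7, Lgr5 was at 1.23 (adjusted p = 0.225) and Znrf3 at 0.43 (adjusted p = 0.247). Without the WT progenitor library 73C3, Lgr5 was at 1.16 (adjusted p = 0.16), without the WT/flox muscle library 71B5 its adjusted p was 0.051, and without the WT progenitor library 74A2 Znrf3 was at 0.68 (adjusted p = 0.0597). Lgr4 was at -0.52 (adjusted p = 0.0542) and was called lower in 6 of 16 alternatives, at -0.90 without 73A7 (adjusted p = 0.00211) and at -0.04 without the other WT muscle library, 73A5 (adjusted p = 0.884). Notum was at 1.0 (adjusted p = 0.42), with 13 counts in WT progenitors and 3 in WT muscle.

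**Figure D4:**
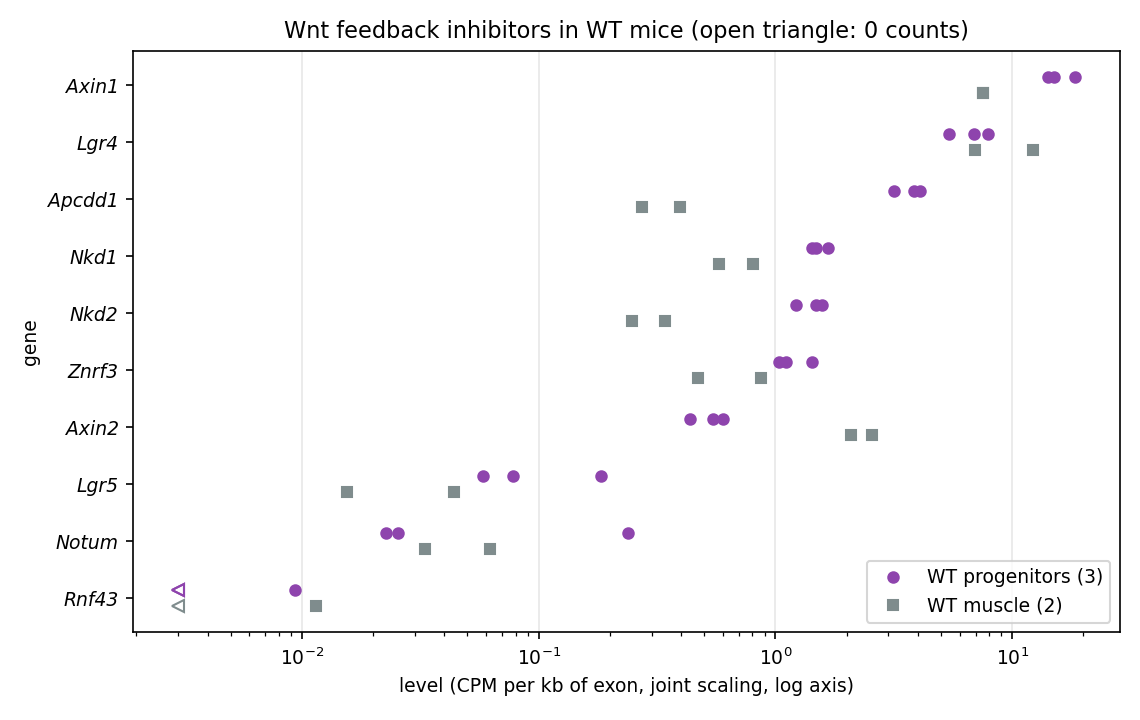
Level of each gene in WT mice, in CPM per kb of exon with joint scaling on a log axis, with 1 circle per progenitor library (3) and 1 square per muscle library (2). Progenitors were labelled day 14 and muscle day 56. Axin2 is higher in muscle than in progenitors, at 2.32 against 0.528 CPM per kb on average, while Apcdd1 averages 3.69 in progenitors and 0.335 in muscle.

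Other genes of the pathway were counted from lists of fixed membership, to be read against the 3.66% of all tested genes called in progenitors and the 0.727% called in muscle. The lists were chosen with earlier results of these data known, so the counts are a description only. Of 20 tested genes of the destruction complex and its regulators, 0 were called in progenitors and 0 in muscle, which at those shares is no result about the complex. Of the Frizzled receptors and co-receptors, 4 of 14 rose in WT/flox progenitors and 0 fell (3 without 74A3). Fzd1, a Frizzled receptor, reached 128, 146 and 184 CPM in WT/flox and 64.7, 54.9 and 57.8 CPM in WT progenitors (log2 fold change 1.37, adjusted p = 0.00228). Fzd10 reached 19.4, 7.96 and 9.78 CPM in WT/flox and 1.21, 1.99 and 1.65 CPM in WT progenitors (2.93, adjusted p = 0.00228). Ror2, a receptor kinase for Wnt ligands, reached 52.2, 50.4 and 52.4 CPM in WT/flox and 25.8, 26.4 and 25.9 CPM in WT progenitors (0.99, adjusted p = 0.0032). In muscle, 1 of 15, Fzd1, rose and 0 fell (1.12, adjusted p = 0.0373).

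Of 12 tested genes of ligand production, 3 rose in progenitors and 0 fell (2 rose without 74A3), and in muscle 0 of 12 were called. Wnt10a reached 1.32, 3.54 and 2.2 CPM in WT/flox and 0.0753, 0 and 0.176 CPM in WT progenitors (adjusted p = 0.0064). It passed the filter on low counts through WT/flox progenitors alone and could only be called higher. Wnt9a averaged 93.7 ± 33.2 CPM in WT/flox and 32.9 ± 5.72 CPM in WT progenitors. Wls, which carries Wnt proteins to the cell surface, averaged 372 ± 65.8 CPM in WT/flox and 179 ± 35.5 CPM in WT progenitors (SD, n = 3 each). Among R-spondins and further LGR genes, 0 of 4 were called in progenitors and 0 of 2 in muscle, numbers too small to read against those shares.

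Of 16 other inhibitors inside the cell or at the membrane, 3 rose in WT/flox progenitors, 0 fell, and 0 of 16 were called in muscle. Tle1, a co-repressor that binds TCF/LEF factors, averaged 103 ± 7.02 CPM in WT/flox and 48.1 ± 9.21 CPM in WT progenitors (log2 fold change 1.10, adjusted p = 0.00675). Trabd2b, a membrane protease that cuts Wnt ligands, averaged 43.5 ± 4.26 CPM in WT/flox and 12.2 ± 6.59 CPM in WT progenitors (1.83, adjusted p = 0.0127). Shisa3, which retains Frizzled receptors inside the cell, averaged 17.1 ± 3.53 CPM in WT/flox and 7.95 ± 2.19 CPM in WT progenitors (1.11, adjusted p = 0.0347). These changes were smaller than those of the 5 members that rose.

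Of 9 tested secreted antagonists, 4 rose in progenitors and 3 in muscle, and 0 fell in either. Dkk2, which binds LRP co-receptors, reached 666, 655 and 687 CPM in WT/flox and 126, 111 and 83.5 CPM in WT progenitors (2.65, adjusted p = 9.0e-05), and 26.2, 18.9 and 21.3 CPM in WT/flox against 3.17 and 5.25 CPM in WT muscle (2.40, adjusted p = 0.01). Sfrp1, which binds Wnt ligands, had log2 fold changes of 1.49 in progenitors (adjusted p = 7.8e-04) and 1.54 in muscle (adjusted p = 0.0214). Sfrp2 rose in progenitors (2.11, adjusted p = 0.00183), and Dkk3 in muscle, with 124, 88.4 and 102 CPM in WT/flox against 24.4 and 15.6 CPM in WT (2.39, adjusted p = 0.00863). Without 71B5, 0 genes of any of these lists were called in muscle.

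Of 7 tested TCF/LEF factors and nuclear partners, 2 rose in progenitors, 0 fell, and 0 of 7 were called in muscle. Tcf7 reached 8.88, 9.51 and 9.55 CPM in WT/flox and 0.151, 0.0662 and 0.176 CPM in WT progenitors (adjusted p = 3.1e-05). Tcf7l2 reached 203, 152 and 198 CPM in WT/flox and 39.4, 45.6 and 44.1 CPM in WT progenitors (2.10, adjusted p = 1.3e-04). Both are DNA-binding partners of beta-catenin. Tcf7, close to undetected in WT cells, passed the filter on low counts through WT/flox progenitors alone and could only be called higher there.

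Genes were ranked by how like their profile over the 11 libraries was to that of Axin2. The measure was the root mean square difference of log2 CPM, with a prior count of 2 added, centred on each gene's mean. It takes in the size of changes as well as their pattern. Of 13780 genes ranked, Tcf7 came first (0.34), followed by Gna14 (0.50), Masp1 (0.58), Igfbp2 (0.67) and Cdkn2b (0.69). Among the members, Nkd1 ranked 42nd (1.23), Nkd2 119th (1.57), Lgr5 292nd (1.8), Znrf3 404th (1.86), Apcdd1 2025th (2.01), Axin1 2862nd (2.04), Notum 6777th (2.17) and Lgr4 9216th (2.34). The order did not follow which members rose: Lgr5 and Znrf3, which did not pass the test, lay closer to Axin2 than Apcdd1 and Notum, which did. Axin1, whose genotypes overlapped in both materials, lay between Apcdd1 and Notum, so ranks at such distances say little. With joint scaling, Tcf7 averaged 7.6 CPM in WT/flox and 0.111 CPM in WT progenitors, and 1.13 CPM in WT/flox and 0.692 CPM in WT muscle. The WT progenitor value rests on very few counts. Tcf7 came first by likeness to Axin2 over these same libraries, so an order of groups shared with Axin2 follows from the ranking. The 11 libraries fall into 4 groups and share the scaling of the joint fit.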

How the data were processed

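The deposited values are whole-number counts of reads per gene symbol, which the authors made from stranded poly(A) libraries read as paired ends of 43 bp, in 1 table for sorted progenitors and 1 for muscle. Per the submitters' processing notes, the tools were bcl2fastq 2.20, STAR and Bowtie, with build mm10. The counting step is not given in the sources used here, nor whether it used strand. Deposited with the counts, the authors' sample tables give sex and a replicate number. Coordinates and exon lengths came from GENCODE M21 (GRCm38), which holds 23384 of the 24421 symbols.

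Low genes were removed with filterByExpr and libraries scaled by TMM. Each material then had its own robust quasi-likelihood F test in edgeR 4.0.16 (under R 4.3.3), two-sided, with Benjamini-Hochberg adjustment over all tested genes and a threshold of 0.05. SEs follow from the F statistic. A joint fit of 11 libraries gave the interaction and the comparison of WT materials. The fits were tested on simulated data, in which no gene was made near 0 in WT and high in WT/flox. That test thus does not cover genes such as Notum. Alternatives were RLE and upper-quartile scaling, no filter, DESeq2 1.42.0, limma 3.58.1 (voom), sex or identifier prefix as a term, each library left out, and, chosen after seeing the data, a replicate block. Intervals and limits of 0 counts cover counting error only.

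The members and lists were chosen with earlier results of these data known. All 10 members are named, with at most the 3 called genes of smallest adjusted p per list and material, Ctnnb1, Hic1, and the 5 genes most like Axin2. The promoter rule asked for members holding a TCF/LEF motif, which none did, so the printed stretches fall outside it. Dpp4, Col3a1, Dcn, Col1a1, Pdgfra, Kdr and Cspg4, all from the marker lists, were picked with their values known.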

Additional observations from a re-analysis of the deposited data

Results flagged for a closer look

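The genotype effect differed between progenitors and muscle by the interaction test of the joint edgeR fit for 3 members. The log2 fold change in progenitors minus that in muscle was 4.63 for Axin2 (adjusted p = 3.3e-06), 2.77 for Nkd1 (adjusted p = 4.4e-04) and 1.61 for Nkd2 (adjusted p = 0.0369). Of the other named pathway genes, it was 5.30 for Tcf7 (SE 0.67, adjusted p = 0.00169), 3.13 for Fzd10 (SE 0.51, adjusted p = 0.00857) and 1.56 for Tcf7l2 (SE 0.28, adjusted p = 0.0181). All 6 effects were larger in progenitors, where every WT/flox library lay above every WT library for each gene. Libraries did not overlap, in either direction, for 16.9% of all genes tested there. The 6 are only those that passed the interaction test. Dkk2, Sfrp1 and Fzd1, called in both materials, are not among them. Their log2 fold changes in progenitors and muscle were 2.65 and 2.40, 1.49 and 1.54, and 1.37 and 1.12. Tcf7, Fzd10 and Tcf7l2 were named for being called in progenitors. For them the rise there, and in part the direction of the difference, follow from that selection. Of all 13781 tested genes, 0.769% were called in the interaction test, 0.522% as larger in progenitors. The Nkd2 difference was called in 5 of 16 alternatives (adjusted p up to 0.259) and that of Tcf7l2 in 11 of 16 (adjusted p up to 0.127), while those of Axin2, Nkd1, Tcf7 and Fzd10 were called in 16 of 16. Tcf7l2 lost the call without 72B8, 74A1, 74A3, 73A7 or 71B4, with differences over the alternatives of 1.26 to 1.83. The RNA kit follows the material and cannot be told apart from it.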

How the results depend on the processing

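Over 114 recomputed counts of calls, 97 stayed within 1.5 times the count given and 17 moved further. Genes called were 454 in progenitors and 755 with DESeq2. In muscle they were 92, and 139 without the filter, 267 with DESeq2 and 178 with the replicate block. For the interaction they were 106, and 272 with DESeq2. With each library left out in turn, genes called ranged between 262 and 483 in progenitors, 0 and 239 in muscle and 54 and 114 for the interaction, and members called in muscle between 0 and 4. Of the members' fold changes under these alternatives, 449 kept direction and side of the threshold, 26 lost the call, 11 gained it and 16 changed sign. The sign changed, none of these values being called, as follows. In muscle it changed for Lgr4 (-0.01), at 0.04 with voom, 0.11 with the replicate block and -0.35 to 0.45 leaving out libraries, Znrf3 (-0.04 to 0.82) and Axin1 (-0.04 to 0.10). In the interaction it changed for Axin1 (-0.01 without the filter, -0.07 to 0.13 leaving out libraries), Znrf3 (-0.33 to 0.57) and Lgr5 (0.59, and -0.34 to 1.25). Notum in WT progenitors over WT muscle (1.0) spanned -0.91 to 1.51, the lowest without 73C3. The cause was not tested. Progenitor libraries with the same number in the sample table correlated in their deviations at 0.294, 0.031 and -0.133, so the numbers were not taken to pair libraries. With the replicate block, 491 genes and 5 members were called in progenitors and 4 members in muscle. The identifier prefix could not be fitted in muscle, where it follows genotype. Rnf43 and, in muscle, Lgr5 had too few counts to pass the filter of the main fits, and the reason was not tested.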
